A study of Homo sapiens with 6 samples.

Results

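The 9 genes described here belong to the NRF2 antioxidant pathway: the transcription factor NFE2L2 (which encodes NRF2) and its inhibitor KEAP1, and the target genes NQO1, HMOX1, GCLC, GCLM, TXNRD1, TXN and PRDX1. Every probe set annotated to one of these symbols alone was taken, which gave 13 of the 22215 probe sets tested, with 3 for NQO1, 2 each for GCLC and TXN and 1 for each of the other genes. All 9 genes were measured, among 11963 in the table. The cells were HK2, a line of immortalised proximal tubule epithelium from human kidney, taken 96 h after transfection with OCRL siRNA (3 arrays) or with non-targeting siRNA, called control siRNA here (3 arrays). OCRL encodes an inositol polyphosphate 5-phosphatase of endosomes and lysosomes that is mutated in Lowe syndrome, and the study asked what its depletion does to proximal tubular cells. Cells of both groups were grown in DMEM F12 with insulin, transferrin and selenium and were transfected at 30% confluence with Dharmafect 4. The labels describe the 3 samples of a group as independent experiments. HK2 is 1 cell line and the knockdown was partial, so the groups compare lowered with normal OCRL mRNA in a single line.

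NRF2 is held low in unstressed cells by KEAP1, which hands it to a CUL3 ubiquitin ligase for degradation. When oxidants or electrophiles modify KEAP1, or when the cargo receptor SQSTM1 binds it, NRF2 escapes, enters the nucleus with a small MAF protein and binds antioxidant response elements (AREs) in its target genes. Control of NRF2 is therefore largely at the level of the protein, which arrays do not measure. The targets fall into a quinone-reducing and heme-degrading arm (NQO1, HMOX1), a glutathione arm (GCLC, GCLM) and a thioredoxin arm (TXNRD1, TXN, PRDX1). The proximal tubule is rich in mitochondria and exposed to filtered heme and iron, and HMOX1 is a known stress gene of this segment.

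OCRL mRNA fell 4.06-fold by its brighter probe set (adjusted p = 1.24e-05, limma) and 2.01-fold by the dimmer one. Medians of the arrays were 7.27 to 7.30 in the OCRL siRNA group and 7.23 to 7.24 in the control siRNA group, as log2 intensity, and Pearson's r between arrays across probe sets was 0.998 to 0.999 within a group. The proximal tubule identity of the line was only partly visible, since the endocytic receptor gene LRP2 (3.81 in OCRL siRNA cells and 3.99 in control siRNA cells) and the water channel gene AQP1 (4.86 in OCRL siRNA cells and 4.98 in control siRNA cells) lay below the lower quartile of all probe sets, 5.27. Of 8 proximal tubule markers, the peptidase genes DPP4, MME and ANPEP were higher and 5 were not called, although ANPEP (4.80 in OCRL siRNA cells and 4.24 in control siRNA cells) also lay below the lower quartile. These 8 had a summed log2 level of 10.61 to 10.68 in OCRL siRNA cells and 10.11 to 10.15 in control siRNA cells. Of 8 epithelial markers, 6 were lower and 0 higher after OCRL siRNA by limma, with 6 at an unadjusted p under 0.05, and their summed level was 14.23 to 14.27 on the log2 scale in OCRL siRNA cells, against 14.62 to 14.70 in control siRNA cells. The part of these marker shifts in the results for the NRF2 genes was not tested. Of the 4 leukocyte, 5 endothelial and 2 red cell markers measured, 0 were called by limma, with 0, 2 and 0 at an unadjusted p under 0.05, and the leukocyte gene PTPRC (4.09 in OCRL siRNA cells and 4.15 in control siRNA cells) lay below the lower quartile. Such unadjusted p-values were common among all genes: the endothelial gene TEK, with 0.0453 by limma, ranked only 4484th of 11963 genes by p. Of 6 fibroblast markers, LUM was lower (8.62 in OCRL siRNA cells and 9.23 in control siRNA cells), and their summed level was 9.62 to 9.67 in OCRL siRNA cells and 9.91 to 10.13 in control siRNA cells. The share called was 37.5% of the proximal tubule, 75% of the epithelial and 16.7% of the fibroblast markers, beside 26% of all genes. In bulk RNA, fewer cells of a type and less RNA per cell cannot be told apart. Every sample of the knockdown group received OCRL siRNA, so lower OCRL and another effect of that reagent cannot be told apart.

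The NRF2 targets did not move together. A difference was called when its limma p, adjusted over all probe sets with the Benjamini-Hochberg method, was under 0.05. By this threshold NQO1, HMOX1 and TXNRD1 rose, GCLM fell, and GCLC, TXN, PRDX1, NFE2L2 and KEAP1 were not called. With 1 probe set per gene, the brightest, 4 of 9 genes were called (44.4%), where 26% of all 11963 genes were. Of all genes, 15.5% were called higher and 10.5% lower. By probe sets, 5 of 13 were higher and 1 lower, and the background was 23.1% in either direction. The median log2 difference of the 9 genes was 0.07, beside 0.0005 over all genes. The share was not tested against the background.

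**Figure D1:**
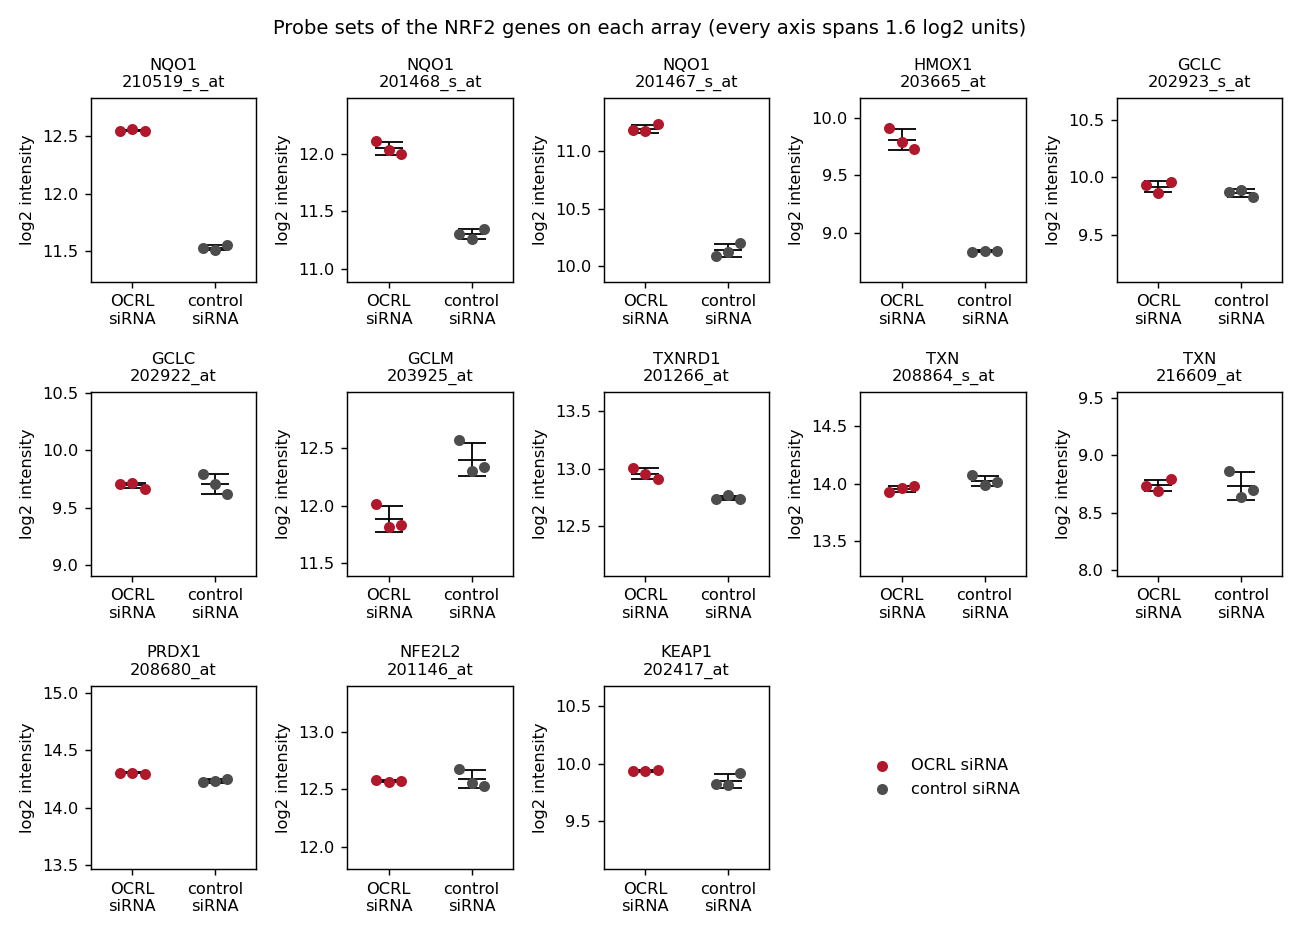
Log2 intensity (vertical axis, spanning 1.6 units in every panel) of the 13 probe sets on each array, OCRL siRNA at the left and control siRNA at the right of each panel. Points are arrays, horizontal lines are the group mean and whiskers are 1 SD (n = 3). The groups lie far apart for NQO1 (3 panels) and HMOX1, with OCRL siRNA higher, and for GCLM, with OCRL siRNA lower.

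NQO1 encodes a quinone reductase that spends NADPH to turn quinones into hydroquinones, and it is a target commonly read as a measure of NRF2 activity. Its brightest probe set was at 12.55, 12.56 and 12.55 on the 3 OCRL siRNA arrays, against 11.53, 11.51 and 11.55 on the 3 control siRNA arrays (log2 intensity). The values ranged over 0.0128 in OCRL siRNA cells and 0.0431 in control siRNA cells, and the groups were separated by a gap of 0.996. The rise was 2.03-fold (log2 difference 1.02, SE 0.040, adjusted p = 3.22e-05, limma), which placed NQO1 62nd among 11963 genes by size of rise and 22nd by p. The dimmest of the 3 probe sets gave nearly the same size, at 11.18, 11.18 and 11.24 on OCRL siRNA arrays and 10.09, 10.12 and 10.20 on control siRNA arrays (log2 difference 1.06, 95% interval 0.94 to 1.18). The middle one, at 12.11, 12.03 and 12.00 on OCRL siRNA arrays and 11.30, 11.26 and 11.35 on control siRNA arrays, showed a smaller rise of 1.67-fold (log2 difference 0.74, 95% interval 0.62 to 0.86). The 3 probe sets thus had 1 direction, with intervals that placed the middle one below the other two, and a difference between probe sets of 1 gene was not tested. All 3 carry the _s_at suffix, which marks probes shared by several transcripts.

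HMOX1 encodes heme oxygenase 1, which splits heme into biliverdin, iron and carbon monoxide. It is controlled by NRF2 and, in the opposite sense, by the heme-sensing repressor BACH1. Its single probe set was at 9.91, 9.79 and 9.73 on OCRL siRNA arrays, against 8.83, 8.84 and 8.84 on control siRNA arrays. The OCRL siRNA arrays spread over 0.18 and the control siRNA arrays over 0.0109, and each OCRL siRNA array lay at least 0.887 above the highest control siRNA array. The rise was 1.96-fold (log2 difference 0.97, SE 0.056, adjusted p = 8.80e-05, limma), 71st of 11963 genes by size. NQO1 and HMOX1 therefore rose by close amounts: the difference between them within an array was 0.05 ± 0.094 in OCRL siRNA cells relative to 0 ± 0.024 in control siRNA cells (mean ± SD, n = 3 each; exact two-sided permutation p = 0.4). With 3 arrays against 3, the smallest p that this permutation test allows is 0.1, so it cannot reach 0.05 for any gene.

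**Figure D2:**
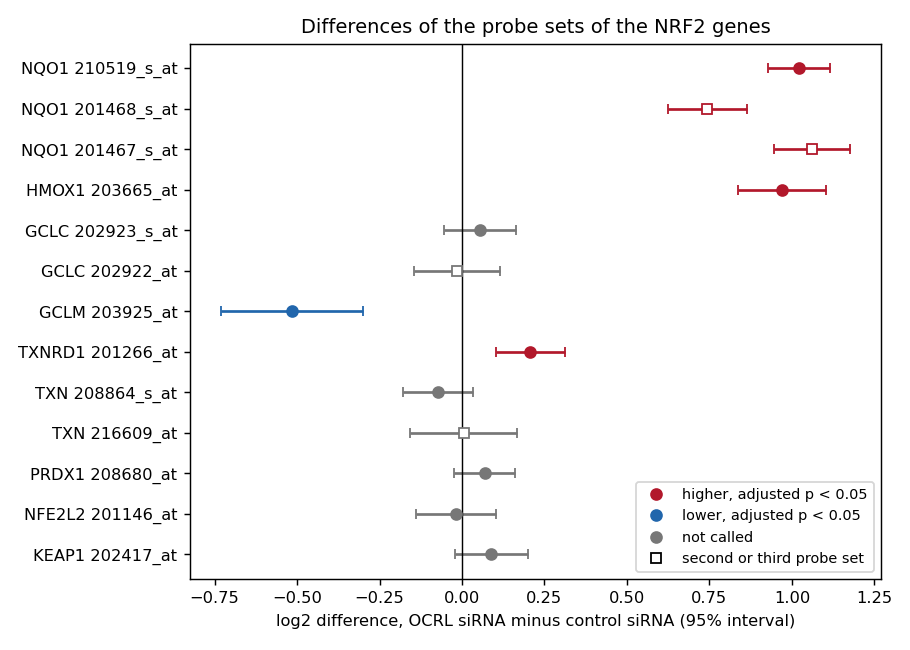
Log2 difference (horizontal axis, OCRL siRNA minus control siRNA) of the 13 probe sets with 95% intervals from limma. Filled circles are the brightest probe set of a gene and open squares its others. NQO1 lies at 0.74 to 1.06, HMOX1 at 0.97, TXNRD1 at 0.21 and GCLM at -0.52, and the intervals of the remaining probe sets include 0.

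The 2 subunits of glutamate-cysteine ligase, the rate-limiting enzyme of glutathione synthesis, did not change alike. GCLM encodes the modifier subunit, which raises the activity of the catalytic subunit encoded by GCLC, and both genes are classic NRF2 targets. GCLM was at 12.02, 11.81 and 11.83 on OCRL siRNA arrays, against 12.57, 12.30 and 12.34 on control siRNA arrays. Its first array was the highest of each group, and the groups did not overlap, with a gap of 0.284. GCLM fell by 0.52 on the log2 scale, a 1.43-fold change (SE 0.090, adjusted p = 0.00708, limma), and ranked 265th of 11963 genes by size of fall. GCLM thus moved against NQO1 and HMOX1 in the same arrays.

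GCLC was at 9.94, 9.87 and 9.96 on OCRL siRNA arrays and 9.87, 9.89 and 9.83 on control siRNA arrays by its brighter probe set. The values overlapped, and the log2 difference was 0.06 (95% interval -0.05 to 0.17, adjusted p = 0.453, limma), so it was not called. The other GCLC probe set overlapped as well, at 9.70, 9.71 and 9.66 on OCRL siRNA arrays and 9.79, 9.70 and 9.62 on control siRNA arrays (log2 difference -0.01, 95% interval -0.14 to 0.12). Taken within each array and relative to the control siRNA mean, GCLM minus GCLC was -0.46, -0.59 and -0.66 on OCRL siRNA arrays and 0.16, -0.13 and -0.03 on control siRNA arrays. The 2 groups did not overlap, and the exact two-sided permutation test gave the smallest p it allows, 0.1.

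The thioredoxin arm changed little. TXNRD1 encodes the cytosolic selenoenzyme that passes electrons from NADPH to thioredoxin. It was at 13.00, 12.96 and 12.91 on OCRL siRNA arrays, against 12.74, 12.77 and 12.74 on control siRNA arrays. The groups did not overlap, with a gap of 0.141. The rise of TXNRD1 was 1.15-fold (log2 difference 0.21, SE 0.044, adjusted p = 0.0157, limma). It was not called without OCRL siRNA replicate 1 (adjusted p = 0.0529) or without control siRNA replicate 3 (0.0587).

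TXN encodes thioredoxin itself. Its brighter probe set was at 13.93, 13.96 and 13.98 on OCRL siRNA arrays and 14.08, 13.99 and 14.01 on control siRNA arrays, lower on every OCRL siRNA array but by a gap of only 0.013 (log2 difference -0.07, 95% interval -0.18 to 0.03, adjusted p = 0.315, limma). The dimmer TXN probe set overlapped between groups, at 8.73, 8.69 and 8.79 on OCRL siRNA arrays and 8.87, 8.64 and 8.69 on control siRNA arrays (95% interval of the log2 difference -0.16 to 0.17). Relative to the control siRNA mean, TXNRD1 minus TXN within an array was 0.28 ± 0.075 in OCRL siRNA cells and 0 ± 0.057 in control siRNA cells (mean ± SD, n = 3 each; exact two-sided permutation p = 0.1, the smallest possible).

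PRDX1 encodes peroxiredoxin 1, a peroxidase that thioredoxin recycles. PRDX1 was at 14.31, 14.31 and 14.30 on OCRL siRNA arrays, against 14.22, 14.23 and 14.25 on control siRNA arrays. Each OCRL siRNA array was above each control siRNA array, but the log2 difference of 0.07 was not called (95% interval -0.02 to 0.16, adjusted p = 0.27, limma). PRDX1 was called higher in 1 of 14 alternatives, with trend and robust settings (adjusted p = 0.0211). TXN and PRDX1 lay close to the top of the range of the arrays, whose highest values were 15.04 to 15.08 in OCRL siRNA cells and 15.04 to 15.07 in control siRNA cells.

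The mRNAs of the 2 regulators were not called. NFE2L2 was at 12.58, 12.56 and 12.57 on OCRL siRNA arrays, against 12.68, 12.56 and 12.53 on control siRNA arrays. The values overlapped, and the 95% interval of the log2 difference, -0.14 to 0.10 around -0.02, left room for small changes in either direction (adjusted p = 0.841, limma). KEAP1 was at 9.94, 9.93 and 9.95 on OCRL siRNA arrays and at 9.82, 9.81 and 9.92 on control siRNA arrays. The KEAP1 values did not overlap, by a gap of 0.013, and the log2 difference of 0.09 was not called (95% interval -0.02 to 0.20, adjusted p = 0.23, limma). The ratio of NFE2L2 to KEAP1 within an array, relative to control siRNA cells, was -0.11 ± 0.009 on the log2 scale in OCRL siRNA cells and 0 ± 0.122 in control siRNA cells (exact two-sided permutation p = 0.4). Counted over all 9 genes, the groups did not overlap in 7 (77.8%), 5 higher and 2 lower, where 44.9% of all genes had no overlap, 25.1% higher and 19.8% lower. Every OCRL siRNA array also had a higher median (7.27 to 7.30) than every control siRNA array (7.23 to 7.24). The gaps of PRDX1 (0.044) and KEAP1 (0.013) were of that order or smaller. Overlap after median centring was not examined.

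Promoter sequences of 7 of the 9 genes were found in the set of RefSeq promoter windows used here (GRCh38.p14), for 10 start sites in all. HMOX1 and PRDX1 had no entry in this set, although RefSeq places both genes on the genome. The core of the ARE was searched as TGACNNNGC and as its reverse complement GCNNNGTCA in windows of 300 bases, 250 before a start and 50 from it onward. It occurred in 4 of the 10 windows and in 13.3% of the 35116 windows of the whole set. The promoters of GCLM, which fell, and of TXNRD1 and NQO1, which rose, are shown because they set a called gene with a core against one without. Each is given 5′ to 3′ on the strand of its gene, 250 bases before the start and the first 10 from it, with the ARE cores in capitals.
GCLM (chr1:93909421-93909680, minus strand): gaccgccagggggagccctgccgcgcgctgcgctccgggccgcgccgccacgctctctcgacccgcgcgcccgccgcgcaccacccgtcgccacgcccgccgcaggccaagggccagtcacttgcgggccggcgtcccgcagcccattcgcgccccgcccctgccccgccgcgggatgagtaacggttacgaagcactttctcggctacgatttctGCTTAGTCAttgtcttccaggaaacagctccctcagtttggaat
TXNRD1 (chr12:104215529-104215788, plus strand): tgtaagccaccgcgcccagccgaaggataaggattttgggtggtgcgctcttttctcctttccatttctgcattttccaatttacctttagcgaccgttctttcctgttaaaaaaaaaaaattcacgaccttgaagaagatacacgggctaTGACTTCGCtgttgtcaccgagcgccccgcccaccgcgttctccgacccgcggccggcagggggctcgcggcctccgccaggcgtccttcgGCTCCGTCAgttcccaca
NQO1 (chr16:69726551-69726810, minus strand): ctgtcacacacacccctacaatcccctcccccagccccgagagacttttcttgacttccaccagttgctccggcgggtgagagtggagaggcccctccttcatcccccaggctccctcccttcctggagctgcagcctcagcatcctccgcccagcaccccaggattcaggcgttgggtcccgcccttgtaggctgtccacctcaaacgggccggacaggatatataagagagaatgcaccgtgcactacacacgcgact

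Counted from the start, with the first transcribed base as 1, the GCLM core GCTTAGTCA lay at -34 to -26. The TXNRD1 window held TGACTTCGC at -99 to -91 and GCTCCGTCA at -8 to 1. A second TXNRD1 start held GCTTTGTCA at -102 to -94. The downstream of 2 KEAP1 starts held TGACACGGC at -54 to -46 and GCTTAGTCA at -31 to -23, and this second match has the same 9 bases as in GCLM. Windows with at least 2 cores made up 1.13% of all windows. The NQO1 window held none of these letters, nor did those of GCLC, TXN, NFE2L2 and the upstream start of KEAP1. A core was therefore present beside a gene that fell (GCLM), a gene that rose (TXNRD1) and a gene that was not called (KEAP1), and NQO1, which rose most of the 9, had none in this window. A match of letters is no evidence of binding, and elements farther from the start were not searched.

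The wider pathway was described with 7 lists holding 99 genes, of which 82 were measured. Of these, 29 were higher, 7 lower and 46 not called by limma (35.4% higher and 8.54% lower, beside 15.5% and 10.5% of all genes). The lists were chosen with earlier results of these data known, and their shares were not tested against the background. Under the 1.5-fold minimum 9 of the 82 were called. Among 13 partners and regulators of NRF2, 3 rose, 0 fell by limma (7 had an unadjusted p under 0.05) and 10 were not called, with a median log2 difference of 0.09. The share called, 23.1%, was close to the 26% of all genes. An unadjusted p under 0.05 was common among all genes: GSK3B, of this list, had 0.0411 by limma and ranked only 4371st of 11963 genes by p. SQSTM1, the cargo receptor that can take up KEAP1, was at 11.54 ± 0.036 in OCRL siRNA cells and 10.96 ± 0.041 in control siRNA cells (log2 intensity, mean ± SD, n = 3), a 1.5-fold rise (log2 difference 0.59, adjusted p = 2.63e-04, limma), and its second probe set rose 1.82-fold. MAFF, a small MAF partner, rose by 0.28 on the log2 scale. BACH1, the repressor of HMOX1, rose by 0.22, and was not called without OCRL siRNA replicate 1 or 3 or control siRNA replicate 2 or 3 (adjusted p up to 0.0802) or after median centring. With each array centred on the same median, this list had 2 genes higher and 1 lower, DPP3, a KEAP1-binding peptidase gene (the log2 difference of DPP3 was then -0.20).

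Genes of glutathione synthesis and use went both ways: of 25 measured, 8 rose, 5 fell and 12 were not called, with a median log2 difference of -0.004 (8 and 6 after median centring). The share called was 52%, beside 26% of all genes. The 5 that fell were SLC7A11, the cystine importer that supplies glutathione synthesis, the export pumps ABCC1 and ABCC4, and the glutathione transferases GSTA4 and GSTM2. SLC7A11 was at 8.88 ± 0.095 in OCRL siRNA cells and 9.38 ± 0.017 in control siRNA cells, a fall of 1.41-fold (log2 difference -0.50, adjusted p = 0.00129, limma). A second SLC7A11 probe set also fell (log2 difference -0.39) and another, dimmer one was not called (0.11, adjusted p = 0.598). With the mean of the 3 probe sets SLC7A11 was not called (adjusted p = 0.0529). ABCC1 fell 1.65-fold (log2 difference -0.72) and ABCC4 by 0.58 on the log2 scale, and GSTA4 and GSTM2 each fell by 0.26. Some GSTM genes have similar sequences, so the signal of GSTM2 may include that of its relatives. Of the other GSTM genes measured, GSTM3 was called higher (log2 difference 0.22), and GSTM1 and GSTM4 were not called.

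Among the glutathione genes that rose were the thiol oxidoreductase GLRX (log2 difference 0.69) and the export pump ABCC3 (0.56). GSR, which regenerates reduced glutathione, rose 1.32-fold, at 8.79 ± 0.038 in OCRL siRNA cells and 8.39 ± 0.043 in control siRNA cells. GSS, which performs the step after glutamate-cysteine ligase, rose 1.20-fold and was not called without OCRL siRNA replicate 3 or control siRNA replicate 3 (adjusted p up to 0.0561). GSR and GSS were picked for naming with their values in view. SLC3A2, which encodes the heavy chain that SLC7A11 pairs with, was likewise picked and was not called (log2 difference 0.05, adjusted p = 0.539, limma), as was GCLC among the 9 genes.

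Of 15 enzymes of quinone, aldehyde and xenobiotic metabolism, the class NQO1 belongs to, 10 rose, 1 fell and 4 were not called, with a median log2 difference of 0.30. The share called was 73.3%, beside 26% of all genes. Leaving out 1 array gave 8 to 9 higher, and median centring gave 9. CES1 was not called when any 1 array other than control siRNA replicate 2 was left out (adjusted p up to 0.0867). NQO2 was not called without OCRL siRNA replicate 1 or 2 or control siRNA replicate 2, with the replicate block or after median centring (adjusted p up to 0.0775). POR was not called without OCRL siRNA replicate 3 (adjusted p = 0.0544), nor AKR1C2 without control siRNA replicate 1 (adjusted p = 0.0547). AKR1C1 was not called without _s_at and _x_at probe sets (log2 difference 0.19, adjusted p = 0.314, limma), where its only remaining probe set overlapped between groups. These losses were looked for after the values were seen. The aldo-keto reductases AKR1C3 (log2 difference 1.84) and AKR1B10 (1.72), both known NRF2 targets in human cells, rose, and their log2 differences exceeded that of NQO1. AKR1B10 was at 7.23 ± 0.164 in OCRL siRNA cells and 5.51 ± 0.380 in control siRNA cells, where the control siRNA value was close to the lower quartile. AKR1C1, AKR1C2 and AKR1C3 have near-identical sequences and may share signal, so the count of 10 may hold 1 change more than once. The carbonyl reductase CBR3 rose by 0.38, and UGDH, which makes UDP-glucuronic acid and is also listed among NRF2 targets, fell by 0.54.

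Of 8 heme and iron genes, 2 rose, 0 fell by limma (4 had an unadjusted p under 0.05) and 6 were not called. The share called, 25%, was close to the 26% of all genes, and with dim probe sets left out 4 of the 8 were called higher. BLVRB, which encodes a flavin and biliverdin reductase, was at 9.96 ± 0.075 in OCRL siRNA cells and 9.09 ± 0.148 in control siRNA cells, a 1.82-fold rise (log2 difference 0.86, adjusted p = 6.17e-04, limma). BLVRA, which encodes the main reductase of the biliverdin that HMOX1 forms, was not called (log2 difference -0.01, adjusted p = 0.892, limma), and was named after its values were seen. FTL, the ferritin light chain, which stores the iron that HMOX1 releases, rose by 0.23, and copies of FTL elsewhere in the genome may share its signal. Of 7 NADPH-supplying genes, 3 rose and 0 fell by limma (4 had an unadjusted p under 0.05): NNT (log2 difference 0.41), IDH1 (0.27) and TALDO1 (0.17). The share of these 7 genes called was 42.9%, beside 26% of all genes. TALDO1 was not called with any 1 array left out, with the replicate block or after median centring (adjusted p from 0.0709 to 0.126).

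Of 9 further genes of the thioredoxin and peroxiredoxin system, 1 rose, 1 fell and 7 were not called (22.2% called, beside 26% of all genes). The gene that rose was TXNIP, which inhibits thioredoxin (log2 difference 0.58, with the same direction in its other 2 probe sets). The gene that fell was TXNL1, a thioredoxin-like protein (-0.16). TXNL1 was not called with the replicate block, or without any 1 array other than control siRNA replicate 1 (adjusted p up to 0.103). Of 5 superoxide, peroxide and methionine repair genes, 2 rose and 0 fell by limma (2 had an unadjusted p under 0.05). The share of these 5 genes called was 40%, beside 26% of all genes. Catalase, CAT, rose by 0.23 and by 0.24 in 2 probe sets and was lower by 0.24 in its remaining one, which lay near the bottom of the range of the arrays, at 3.47 in OCRL siRNA cells and 3.71 in control siRNA cells. MSRB2 rose by 0.41 in 1 of its 2 probe sets, and the other was not called (log2 difference 0.05).

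**Figure D3:**
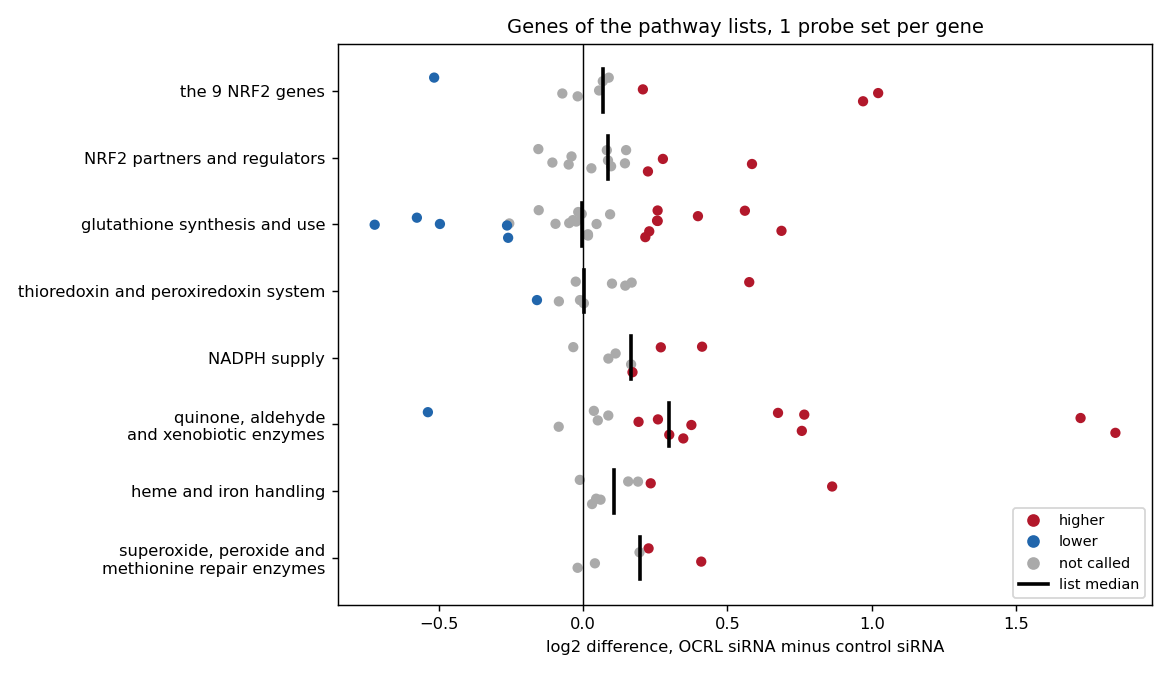
Log2 difference (horizontal axis, OCRL siRNA minus control siRNA) of each measured gene of the 9 NRF2 genes and of the 7 pathway lists, with 1 probe set per gene. Red points were called higher, blue lower and grey not called, and black bars are list medians. The enzymes of quinone, aldehyde and xenobiotic metabolism lie mostly right of 0 (median 0.30), and the glutathione genes lie on both sides (median -0.004).

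Profiles like those of NQO1 and HMOX1 were sought among the other 11954 genes, by the root mean square distance over the 6 arrays after the control siRNA mean of each gene was taken off. This distance depends largely on the size of the rise, so near genes are those that rose by a like amount. Shared regulation was not tested. The genes nearest to NQO1 were G0S2 (distance 0.017 on the log2 scale, log2 difference 1.02), NT5E (0.046, 0.99) and FAH (0.049, 1.06). Those nearest to HMOX1 were GDF15 (0.044, 0.94), LYST (0.051, 0.93) and APOBEC3B (0.051, 0.92). A dimmer GDF15 probe set was not called (log2 difference 0.09). Of the other LYST probe sets, 1 rose by 0.61 and a dimmer one was not called (0.11). The GDF15 and LYST probe sets that were not called lay below the lower quartile of all probe sets. G0S2 encodes a lipase inhibitor, NT5E a surface nucleotidase, FAH an enzyme of tyrosine breakdown, GDF15 a secreted stress cytokine, LYST a regulator of lysosome size and APOBEC3B a cytidine deaminase.

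**Figure D4:**
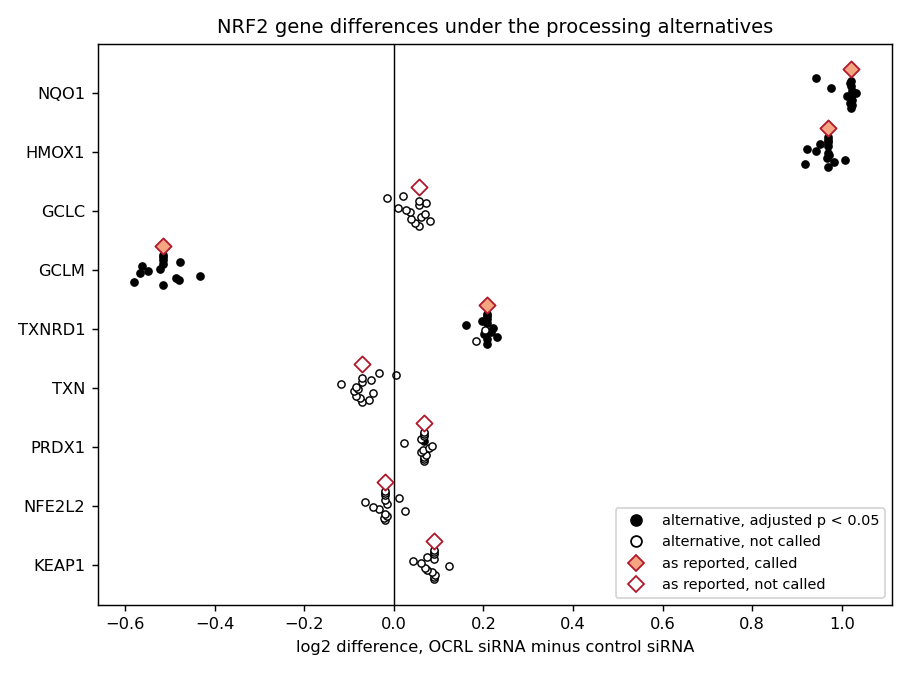
Log2 difference (horizontal axis, OCRL siRNA minus control siRNA) of each of the 9 genes as reported (diamonds) and under the processing alternatives (circles, 13 for NQO1 and 14 for each other gene). Filled symbols have an adjusted p under 0.05 and open ones do not. NQO1, HMOX1 and GCLM are filled in each of them, and TXNRD1 in 12 of 14.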

How the data were processed

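RNA of 6 HK2 samples was hybridised to Affymetrix arrays as biotinylated cRNA, per the labels. The deposited values are log2 intensities of probe sets, made by the authors with affy and RMA, per the submitters' processing notes. The versions are not given in the sources used here. RMA equalises the distributions of the arrays, so it would take out a change common to most genes, and it shrinks differences at low intensity.

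The 62 control probe sets were left out of 22277. GEO's platform annotation gave 1 symbol to 19064 probe sets. The 1043 with several symbols and the 2108 without one were tested but left unnamed. The brightest probe set represented a gene. The test was limma (version 3.58.1, R 4.3.3) with lmFit, eBayes and a single group term, two-sided, and p-values were adjusted by Benjamini-Hochberg over 22215 probe sets. Differences are OCRL siRNA minus control siRNA, and SE and 95% intervals are moderated. The members, lists and named genes were chosen with earlier results of these data known. List genes named were the 4 called with the smallest p, and all in a direction with 5 or fewer. The contrasts between pairs of members were chosen after seeing the data. A list gene with no probe set of its own was not analysed here. On simulated data with these 22215 probe sets, 200 of them changed per run, the fit recovered 36.0% of 1.25-fold, 75.2% of 1.5-fold and 94.2% of 2-fold changes. In the measured data many more were called, 5137, so the adjusted threshold differed and these recovery rates need not hold there. Figures used matplotlib 3.10.9.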

Additional observations from a re-analysis of the deposited data

How the results depend on the processing

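The calls of NQO1, HMOX1 and GCLM held in each alternative that measured them, the 1.5-fold minimum aside, with log2 differences of 0.94 to 1.03, 0.92 to 1.01 and -0.58 to -0.43. NQO1 had no value without _s_at and _x_at probe sets. With a 1.5-fold minimum, 2 of the 9 genes were called (NQO1 and HMOX1) and 0 were lower, by limma, with GCLM at an unadjusted p of 7.81e-04, and 9 of 82 pathway genes and 806 probe sets were called. Without _s_at and _x_at probe sets, 3 of 8 probe sets of the NRF2 genes and 2348 of all 11813 were called. With the mean of the probe sets of a gene, 3363 of 11963 genes were called. As deposited, 5137 of 22215 probe sets were called, so these counts stand on different totals. The share called was lower in the first of these settings and higher in the second. After median centring the median log2 difference was 0.0225 for the 9 genes and -0.0527 for all probe sets. As deposited these medians were 0.0685 and -0.0067. Of the called probe sets, 57.2% were higher as deposited and 42.02% after centring, and the 9 genes had 3 higher and 1 lower in both cases. Leaving out 1 array gave 3 to 4 called genes of the 9, 2 to 3 of them higher and 1 lower, 5 to 6 probe sets, a median of 0.06 to 0.08, 30 to 34 pathway genes, 3576 to 4898 probe sets in all and an OCRL difference of -2.05 to -1.99. With the replicate number as a block, 4571 probe sets were called and the same number of the 9 genes, 4. Same-numbered arrays correlated in their deviations from the group means at r = 0.14, 0.12 and -0.01, and arrays of unlike number at -0.18 to 0.10. Not every array correlated best with its own number. The labels do not say whether equal numbers pair the samples and this check does not settle it, so the block was an alternative only. In the pathway lists, trend and robust settings gave 5 of 7 NADPH-supplying and 3 of 9 thioredoxin system genes higher and 2 of 13 NRF2 partners lower. Leaving out dim probe sets gave 3 of 9 thioredoxin system genes and 6 of the 8 quinone and xenobiotic enzymes still measured higher, and leaving out _s_at and _x_at probe sets gave 5 of 10 of those enzymes higher and 5 of 17 glutathione genes. The 3 arrays per group limit precision, and protein and NRF2 activity were not measured.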
